A study of Mus musculus with 6 samples.

Results

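Dystrophin (Dmd), utrophin (Utrn), dystroglycan (Dag1) and the α-, β- and δ-sarcoglycans (Sgca, Sgcb, Sgcd) were followed by RNA-seq in cultured embryonic mouse cardiomyocytes after knockdown of DNMT1, the enzyme that copies DNA methylation onto the newly made strand when a cell divides. These 6 genes were chosen by name and were all present among the 43629 genes listed and among the 15470 genes with enough reads to be tested. Ventricular cells came from CD-1 embryos of embryonic day 13.5. In culture they were transfected with 12 nM negative siRNA or with 12 nM DNMT1 siRNA, a pool of siRNAs. After 72 h the cells were released and sorted with magnetic beads for VCAM1, a surface protein of embryonic cardiomyocytes. RNA was taken from the sorted cells of 3 cultures of each kind. For the knockdown cultures the labels disagree, with DNMT1 in the titles and DNMT3a in the treatment field. The mRNA of Dnmt1 was therefore read in every culture. It gave 5906, 4003 and 3701 counts with negative siRNA and 576, 539 and 407 with DNMT1 siRNA, and fell by 2.03 on the log2 scale (SE 0.11, edgeR adjusted p = 0.000192). Dnmt3a (0.24, adjusted p = 0.0919) and Dnmt3b (0.21, adjusted p = 0.444) did not pass the test, although Dnmt3a reached an adjusted p of 0.0430 in edgeR without negative siRNA culture 2 (0.27). The titles were followed.

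In striated muscle, dystrophin binds cytoskeletal actin at the inner face of the plasma membrane and anchors to dystroglycan, whose outer part is covered with sugars and binds laminin in the basement membrane. The sarcoglycans form a separate membrane subcomplex that holds dystroglycan and dystrophin together, and utrophin is the widely expressed relative of dystrophin that can take its place. Loss of dystrophin or of a sarcoglycan in humans causes muscular dystrophy, often with cardiomyopathy.

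DNMT1 acts on cytosines in CpG dinucleotides. The 250 bases before RefSeq transcription starts (GRCm38.p6) are therefore shown for dystrophin at the upstream end of the gene and at a start far inside it, and for Sgca and Sgcb, the sarcoglycans with the largest fold changes. Each is printed 5′ to 3′ with CpG in capitals. Methylation was not analysed here.
Dmd, upstream start, chrX:82948620-82948869 (plus strand): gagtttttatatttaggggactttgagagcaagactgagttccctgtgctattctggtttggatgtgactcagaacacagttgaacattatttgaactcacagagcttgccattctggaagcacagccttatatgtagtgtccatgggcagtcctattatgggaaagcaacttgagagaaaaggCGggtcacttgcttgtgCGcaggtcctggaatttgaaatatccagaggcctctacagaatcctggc
Dmd, internal start, chrX:85048045-85048294 (plus strand): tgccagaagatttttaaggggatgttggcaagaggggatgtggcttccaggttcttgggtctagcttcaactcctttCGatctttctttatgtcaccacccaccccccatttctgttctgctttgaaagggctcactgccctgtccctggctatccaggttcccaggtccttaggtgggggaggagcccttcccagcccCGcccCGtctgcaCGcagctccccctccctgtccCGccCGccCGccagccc
Sgca, chr11:94976328-94976577 (minus strand): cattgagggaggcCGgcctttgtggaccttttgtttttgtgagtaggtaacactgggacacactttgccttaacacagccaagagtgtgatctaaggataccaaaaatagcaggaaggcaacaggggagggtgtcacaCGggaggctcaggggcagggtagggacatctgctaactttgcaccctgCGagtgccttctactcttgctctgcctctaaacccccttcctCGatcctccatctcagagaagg
Sgcb, chr5:73647738-73647987 (minus strand): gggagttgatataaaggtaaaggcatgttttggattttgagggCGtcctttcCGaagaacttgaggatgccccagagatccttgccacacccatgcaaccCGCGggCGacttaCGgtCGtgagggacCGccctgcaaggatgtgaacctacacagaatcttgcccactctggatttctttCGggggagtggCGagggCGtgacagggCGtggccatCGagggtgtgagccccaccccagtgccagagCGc
The windows of the members differed widely in CpG. Over 32851 RefSeq windows of this length the median was 6 CpG and 52.4% GC. The upstream Dmd window held 2 CpG, with 45.2% GC, and the internal one 7, with 60.0% GC. Sgca had 4 CpG and Sgcb 14. Windows not printed held 2 CpG for Utrn, 9 for Sgcd, and 21 and 36 at the overlapping windows of Dag1. The starts used for Utrn and Sgcd lie inside the annotated genes, so other starts of these genes were not covered. Motifs known from muscle genes were searched on both strands. The upstream Dmd window held a CArG box, bound by serum response factor, 98 to 89 bases before the start and an MEF2 site 244 to 235 bases before it. The CArG box occurs in 1.5% of all windows and the MEF2 site in 2.9%, and neither was found in any other window of the members. E-boxes (CANNTG), bound by basic helix-loop-helix factors and present in 66.2% of all windows, numbered 2 in the upstream Dmd window, 1 in that of Sgca, 7 in that of Utrn, 2 in that of Sgcd and 1 in each window of Dag1. The Sgcb and internal Dmd windows had none.

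Gene counts ranged from 27852412 to 35896018 with negative siRNA and from 13739561 to 16186310 with DNMT1 siRNA. Reads given to no gene made up 16.4% ± 1.58 in the controls and 29.3% ± 4.23 in the knockdown libraries (SD, n = 3). This share is of reads given to a single gene, to no gene or to several genes. Reads aligned to several places were left out of it. Cardiomyocyte markers were present, and 5 of 8 were DE and higher with DNMT1 siRNA (Tnnt2, Actn2, Myl2, Ryr2 and Nkx2-5). With 1 culture left out this count ran from 2 of 8 (without DNMT1 siRNA culture 2) to 7 of 8 (without negative siRNA culture 2). Their summed level was 218 to 283 RPKM (reads per kilobase of exon, scaled to library size) with negative and 346 to 429 with DNMT1 siRNA. The 3 cardiomyocyte markers that were not DE went both ways on the log2 scale. Myl3 was at 0.94 and Myh7 at 0.20 (edgeR, adjusted p = 0.0929 and 0.787). Vcam1, the protein used for sorting, was lower in every knockdown culture (-0.26, edgeR adjusted p = 0.148). Fibroblast markers summed to 4517 to 6927 and 3431 to 3634 RPKM, with 2 of 6 DE and lower (0 of 6 without negative siRNA culture 2 or any DNMT1 siRNA culture). Smooth muscle markers summed to 2378 to 3616 and 2019 to 2110 RPKM (1 of 6 DE and lower, 0 to 3 with 1 culture left out), and endothelial markers to 11.6 to 19.1 and 18 to 21 RPKM (2 of 6 DE and higher, 5 without negative siRNA culture 2, and 0 without negative siRNA culture 3 or any DNMT1 siRNA culture). In the endothelial and smooth muscle lists 1 marker each had the opposite sign. Tek was at -0.35 on the log2 scale (edgeR, adjusted p = 0.0373) and Rgs5 at 1.10 (edgeR, adjusted p = 0.111). With DESeq2 Rgs5 was DE and higher (adjusted p = 0.0316). No epicardial or macrophage marker was DE in the fit of all cultures (0 of 5 each; 495 to 584 against 570 to 599 RPKM, and 3.20 to 7.01 against 3.65 to 5.57 RPKM). Of the macrophage markers, 2 (Csf1r and Adgre1) were DE and lower without negative siRNA culture 1 and with DESeq2. In the skeletal muscle list, 5 of 6, among them Myod1 and Pax7, were too low to be tested. In such cultures fewer cells of a type and less RNA per cell cannot be told apart, and the part of these shifts in the results below was not tested. Negative siRNA culture 2 stood apart from the other controls, for example in Des (13146 counts against 6963 and 5703), and calls of the members and of partners named below that turn on it are given with and without it.

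DNMT1 siRNA was followed by higher Dmd, Dag1 and Sgcb mRNA and lower Utrn mRNA, all by less than 1.5-fold. In what follows, genes that rose or fell had an FDR below 0.05 in edgeR's quasi-likelihood F test over all tested genes, and DE genes also had a fold change above 1.5. By the first limit 4 of the 6 members changed (12.5% of all tested genes did), and by both limits 0 of 6 did (6.49% of all tested genes were DE, 4.26% higher and 2.23% lower). Without negative siRNA culture 2, Sgca and Sgcd were DE and higher, 2 of 6. The normalised counts (counts scaled to a common library size) did not overlap between treatments for 5 of the 6, against 36% of all tested genes. They were higher with DNMT1 siRNA for 4 (18.3% of all tested genes) and lower for 1 (17.7%). The plot of the members by culture shows these values.

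**Figure D1:**
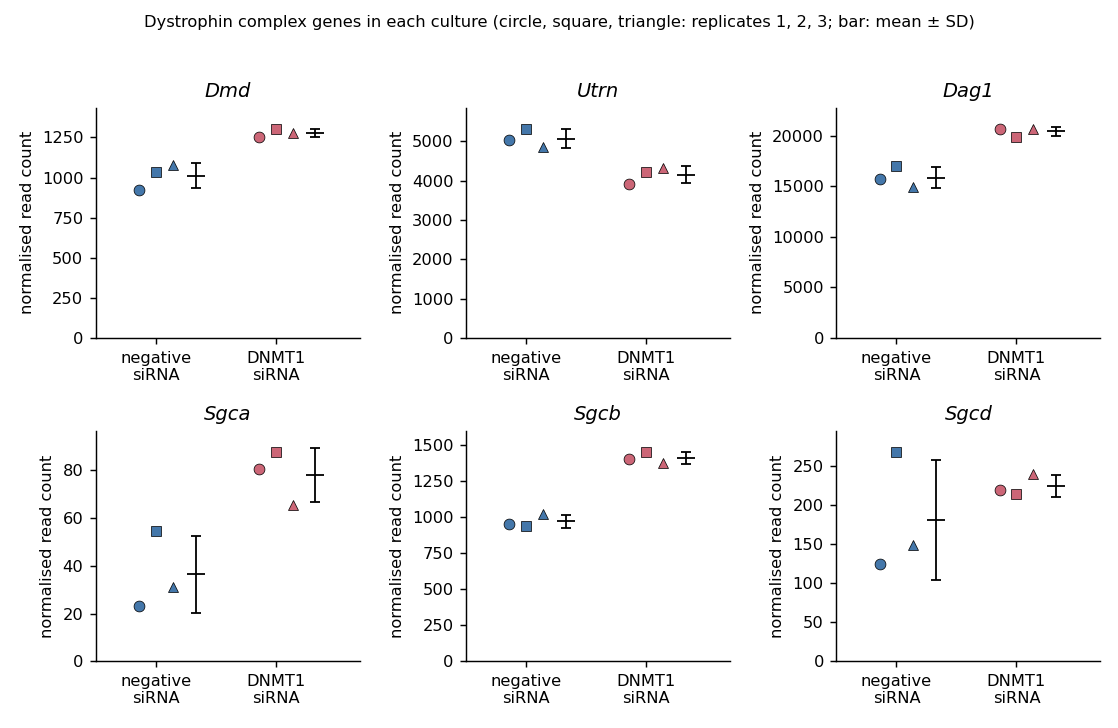
Normalised read counts of the 6 genes in each culture (y axis from 0; circles, squares and triangles are replicates 1, 2 and 3; bars are mean ± SD, n = 3). Dmd, Dag1, Sgca and Sgcb were higher in all 3 DNMT1 siRNA cultures than in any control, Utrn was lower, and for Sgcd negative siRNA culture 2 (268) lay above every other culture.

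Dystrophin was measured on a gene of 2257.3 kb on chromosome X (82948870 to 85206141, GRCm38). Normalised counts of Dmd were 923, 1035 and 1079 with negative siRNA and 1255, 1306 and 1277 with DNMT1 siRNA. The highest control lay below the lowest DNMT1 siRNA culture. Dmd rose by 0.34 on the log2 scale (SE 0.08, 95% interval 0.16 to 0.52, 1.26-fold, edgeR adjusted p = 0.0312). The count sums all products of the gene, so that full-length dystrophin and the shorter forms from internal starts cannot be told apart. Leaving out any DNMT1 siRNA culture raised its adjusted p (edgeR) above the limit, to 0.116, 0.147 and 0.125 without cultures 1, 2 and 3.

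Above 30 kb, classes of longer genes had higher median fold changes, and Dmd is in the longest class. The median log2 fold change was -0.02 for tested genes up to 10 kb (n = 4885) and -0.03 from 10 to 30 kb. It was 0.07 from 100 to 300 kb (n = 1596), 0.14 from 300 to 1000 kb (n = 375) and 0.34 above 1000 kb (n = 39), where Dmd itself was the median gene. With a smooth trend on gene length taken out of each library, Dmd stood at 0.05 (edgeR, adjusted p = 0.721). The share of reads given to no gene, defined as above, was 14.6 to 17.5% with negative and 24.4 to 32.0% with DNMT1 siRNA. It moved with treatment as well, and its part in the trend was not tested.

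**Figure D2:**
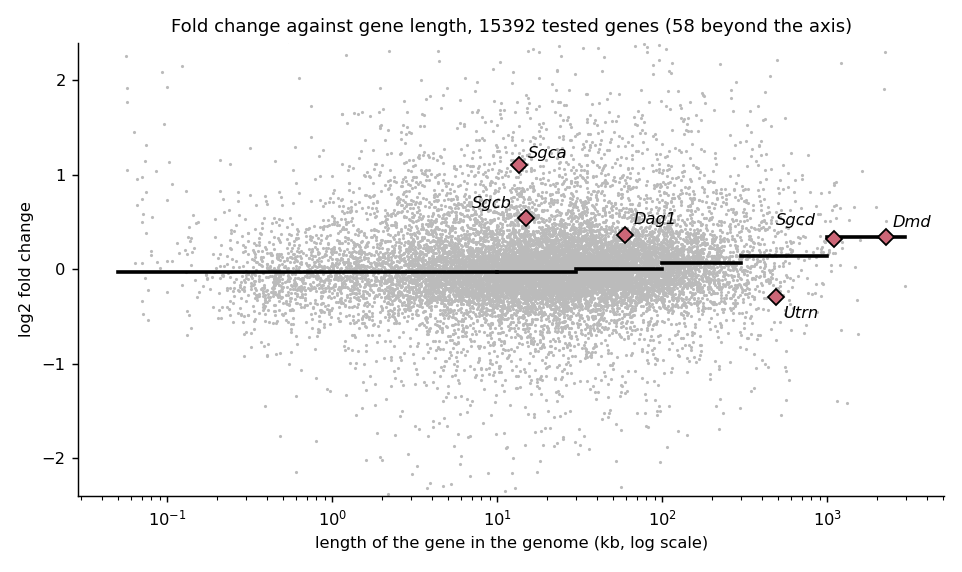
Log2 fold change, DNMT1 over negative siRNA, against the length of the gene in the genome (kb, log scale) for 15392 tested genes with an annotated length, 58 of them beyond the y axis. Black lines are medians of length classes, which lie between -0.03 and 0.34, and diamonds are the 6 members: Dmd and Sgcd lie near the line of their class, Utrn below it, and Dag1, Sgca and Sgcb above.

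Utrophin changed in the other direction. Its gene spans 487.2 kb of chromosome 10 (12382188 to 12869365). Normalised counts of Utrn were 5031, 5323 and 4841 in the controls and 3903, 4214 and 4321 with DNMT1 siRNA. All 3 knockdown cultures were below all 3 controls. Utrn fell by 0.29 on the log2 scale (SE 0.07, 95% interval -0.45 to -0.13, 1.22-fold lower, edgeR adjusted p = 0.0342). Unlike Dmd, it lay below the median of its length class, and with the length trend taken out its log2 fold change was -0.45 (edgeR, adjusted p = 0.00516). Without DNMT1 siRNA cultures 1, 2 and 3 in turn the adjusted p (edgeR) was 0.128, 0.136 and 0.0897.

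The ratio of the paralogs within each culture needs no library scaling. The log2 ratio of Dmd to Utrn counts was -2.45, -2.36 and -2.16 in the controls and -1.64, -1.69 and -1.76 with DNMT1 siRNA. As a plain ratio it averaged 0.200 and 0.309, a 1.55-fold difference on the log2 means. With Dmd higher and Utrn lower in every knockdown culture, this ratio had to separate, and it is given as a description. Its permutation p entered the adjustment over the 5 ratios but is not read as a test. The log2 ratio of Dmd to Dag1 overlapped, with means of -3.97 ± 0.16 and -4.00 ± 0.06 (SD, n = 3; 2-sided exact permutation p = 0.9, adjusted 1.0 over 5 ratios). An exact permutation test of 3 against 3 cultures cannot go below p = 0.1.

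**Figure D3:**
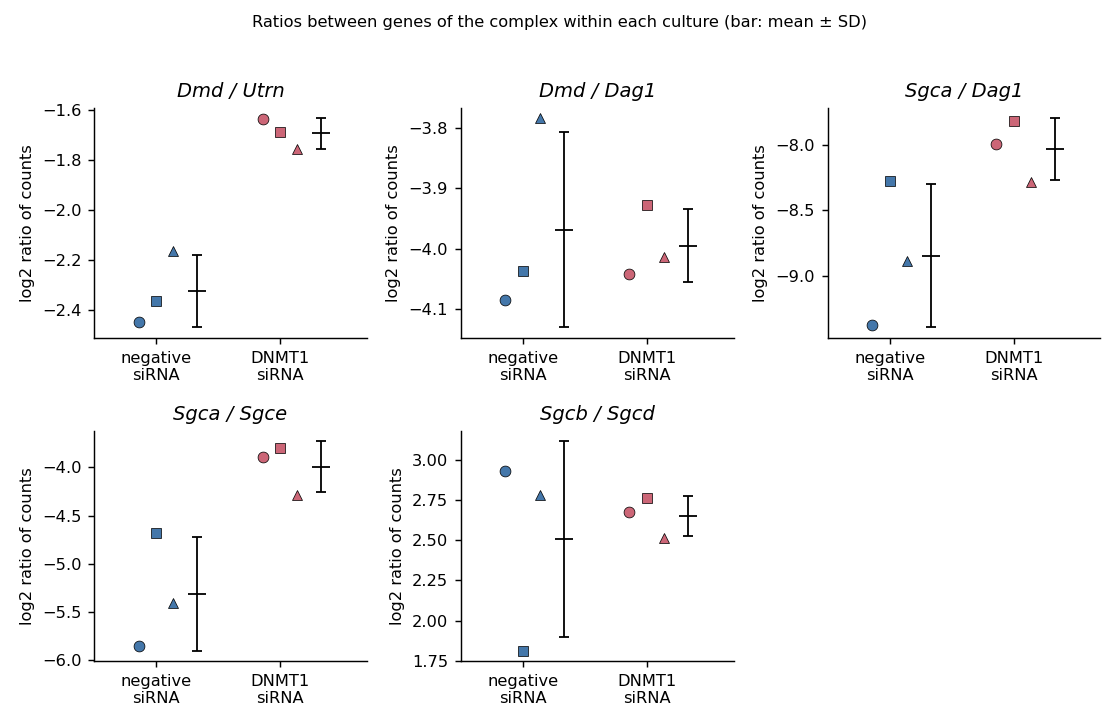
Log2 ratio of the read counts of 2 genes within each culture, 5 ratios (symbols are replicates as above; bars are mean ± SD, n = 3; y axes do not start at 0). Dmd/Utrn (-2.32 to -1.69 on average) and Sgca/Sgce (-5.31 to -3.99) were separate between treatments, and the other 3 ratios overlapped.

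Dystroglycan, the receptor for laminin that is cut into an outer α and a membrane-spanning β chain, was the most abundant of the members. Normalised counts of Dag1 were 15671, 17006 and 14876 with negative siRNA and 20697, 19886 and 20658 with DNMT1 siRNA. The groups were separate by more than the spread of either. Dag1 (chromosome 9, 108204634 to 108263958) rose by 0.36 on the log2 scale (SE 0.07, 95% interval 0.19 to 0.54, 1.29-fold, edgeR adjusted p = 0.0193). Its gene spans 59.3 kb, and with the length trend taken out its log2 fold change was 0.35 (edgeR, adjusted p = 0.0270). Leaving out DNMT1 siRNA cultures 1, 2 and 3 in turn gave adjusted p (edgeR) of 0.113, 0.0914 and 0.108.

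Among the sarcoglycans, Sgcb had the most stable difference and Sgca the largest fold. β-sarcoglycan is needed for assembly of the subcomplex. Normalised counts of Sgcb were 952, 943 and 1023 in the controls and 1405, 1455 and 1379 after knockdown. The gap between treatments was several times the spread within them. Sgcb (chromosome 5, 73632749 to 73647790) rose by 0.54 on the log2 scale (SE 0.07, 95% interval 0.38 to 0.70, 1.45-fold, edgeR adjusted p = 0.00325). It stayed below an adjusted p of 0.05 in all 6 fits that left out 1 culture (0.00150 to 0.0325, edgeR).

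α-sarcoglycan is made in striated muscle, and its loss underlies a form of limb-girdle muscular dystrophy. Sgca had few reads, 40, 79 and 40 counts in the controls and 60, 60 and 40 in the DNMT1 siRNA cultures. Normalised counts were 23.3, 54.5 and 31.1 against 80.5, 87.5 and 65.4. All knockdown cultures were higher than all controls, with control 2 nearest to them. The log2 fold change of Sgca (chromosome 11, 94962791 to 94976327) was 1.10 (SE 0.32, 95% interval 0.36 to 1.85, 2.15-fold, edgeR adjusted p = 0.0607). Without negative siRNA culture 2 it was 1.53 (edgeR, adjusted p = 0.00424), and DESeq2 on all cultures gave 1.08 (adjusted p = 0.0272). In the other 5 fits that left out 1 culture the log2 fold change was 0.86 to 1.20, with adjusted p in edgeR of 0.0946 to 0.214.

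For δ-sarcoglycan, which pairs with β-sarcoglycan in the core of the subcomplex, the treatments overlapped. Normalised counts of Sgcd were 125, 268 and 149 in the controls and 220, 214 and 240 with DNMT1 siRNA. Control 2 was the highest of all 6 cultures while controls 1 and 3 were the lowest. The log2 fold change of Sgcd (chromosome 11, 46896253 to 47988969) was 0.32 (SE 0.27, 95% interval -0.30 to 0.93, edgeR adjusted p = 0.471). Without negative siRNA culture 2 it was 0.72 (edgeR, adjusted p = 0.00845), so this culture decided the call. The gene spans 1092.7 kb, and with the length trend taken out and all cultures kept, Sgcd stood at 0.09 (edgeR, adjusted p = 0.841).

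Other sarcoglycans were at very different levels. ε-sarcoglycan, the widely expressed homologue of α-sarcoglycan and an imprinted gene expressed from the paternal allele, gave 1366, 1410 and 1334 normalised counts for Sgce in the controls and 1204, 1224 and 1294 with DNMT1 siRNA. These did not overlap, but the log2 fold change of -0.14 (SE 0.07) did not pass the test (edgeR, adjusted p = 0.201). ζ-sarcoglycan (Sgcz) gave 0 counts in the controls and 0, 1 and 1 with DNMT1 siRNA and was not tested. Sarcospan, a small membrane protein bound to the sarcoglycans, had 706, 1120 and 953 normalised counts of Sspn in the controls and 1258, 1264 and 1153 with DNMT1 siRNA. Its log2 fold change was 0.40 (SE 0.15, edgeR adjusted p = 0.120), and 0.57 without negative siRNA culture 2 (edgeR, adjusted p = 0.0139).

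The α- and ε-sarcoglycans hold the same place in the subcomplex, α in muscle and ε mostly elsewhere. The log2 ratio of Sgca to Sgce counts was -5.85, -4.69 and -5.41 in the controls and -3.89, -3.80 and -4.29 after DNMT1 siRNA. The ratio was thus 2.50-fold higher on the log2 means. As Sgca was higher and Sgce lower in every knockdown culture, it had to separate. Its permutation p entered the adjustment over the ratios but is not read as a test. The ratios Sgca/Dag1 (0.81 higher; exact permutation p = 0.2, adjusted 0.333) and Sgcb/Sgcd (0.14 higher; p = 1.0, adjusted 1.0) overlapped. For Sgca/Dag1 only negative siRNA culture 2 overlapped (-8.278, against a lowest knockdown value of -8.285). Without that culture the log2 difference was 1.10 for Sgca/Dag1 and -0.20 for Sgcb/Sgcd.

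Per length of all exons, Sgcb was the highest of the sarcoglycans, an order that depends on the length used. It made up 58.4% ± 3.64 of the summed RPKM of Sgca, Sgcb, Sgcd, Sgce and Sgcz in the controls and 64.8% ± 0.48 after knockdown (SD, n = 3). Sgce made up 32.8, 30.9 and 30.4% in the controls and 21.3, 20.9 and 23.0% after knockdown. Its share was lower in every DNMT1 siRNA culture. Sgce has 10612 bases of exon in all but a longest transcript of 4416, and by longest transcript it led in the controls, at 49.4% against 40.9% for Sgcb. With DNMT1 siRNA the shares by that length were 37.5% for Sgce and 49.8% for Sgcb, so that the lower share of Sgce after knockdown was seen with both lengths. Sgca supplied 3.43, 7.31 and 4.33% in the controls and 8.70, 9.14 and 7.12% after knockdown. Sgcd supplied 5.25% ± 2.01 and 5.07% ± 0.40. The sum itself was 18.1, 19.8 and 19.1 RPKM in the controls and 24.6, 25.4 and 24.4 RPKM with DNMT1 siRNA. The shares add to a fixed total, so a lower share of Sgce can accompany higher levels of the others.

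**Figure D4:**
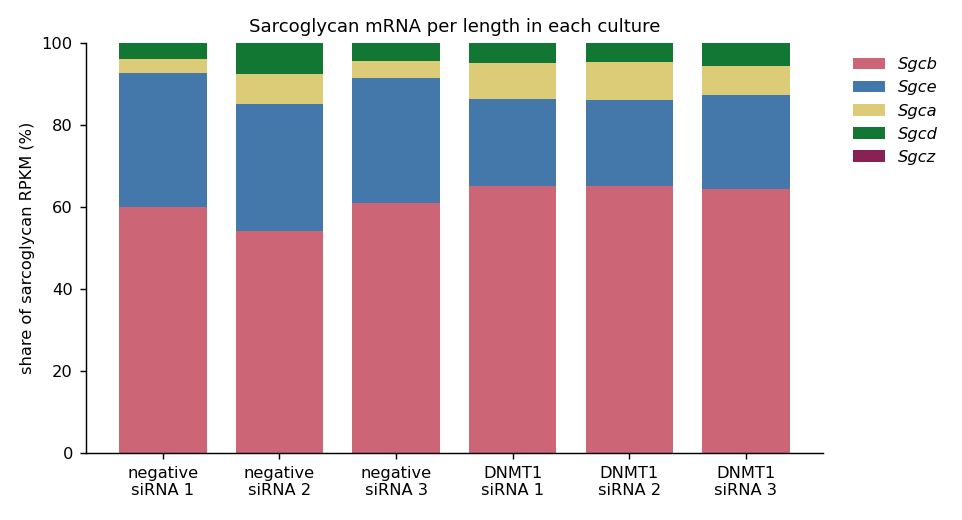
Share of each of the 5 sarcoglycans in their summed RPKM over all exons (y axis, percent) in each of the 6 cultures. The Sgce block takes 30.4 to 32.8% in the negative siRNA cultures and 20.9 to 23.0% in the DNMT1 siRNA cultures, and Sgcb takes 54.2 to 65.1%. By longest transcript Sgce would be the larger block in the controls.

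Across the members the order of levels per length ran from Dag1 down to Sgca. In the controls it was Dag1 (115 ± 7.80 RPKM), Utrn (13.6 ± 0.65), Sgcb (11.1 ± 0.50), Dmd (1.96 ± 0.16), Sgcd (1.01 ± 0.43) and Sgca (0.964 ± 0.43; SD, n = 3). Sgcd and Sgca did not differ beyond their spread. With DNMT1 siRNA, Sgcb (16.1 ± 0.44) stood above Utrn (11.2 ± 0.58), and Sgca (2.07 ± 0.30) above Sgcd (1.25 ± 0.08), while Dag1 reached 148 ± 3.31 and Dmd 2.48 ± 0.05. Sgca and Dmd then lay closer together, at 2.07 and 2.48 RPKM. The exchange of Utrn and Sgcb was also seen with the longest transcript in place of all exons (18.8 and 11.8, then 15.4 and 17.2 RPKM), whereas Sgca then stayed below Sgcd (0.970 and 1.87, then 2.08 and 2.33 RPKM).

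The partners of the complex were read from lists of 43 further genes. Of the 41 tested, 3 were DE, all higher with DNMT1 siRNA, against 4.26% of all tested genes in that direction. They were Sntb1 and Dtna among the cytoplasmic partners and Ank3 among the linkers. The plot of fold changes gives all tested genes of the lists.

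**Figure D5:**
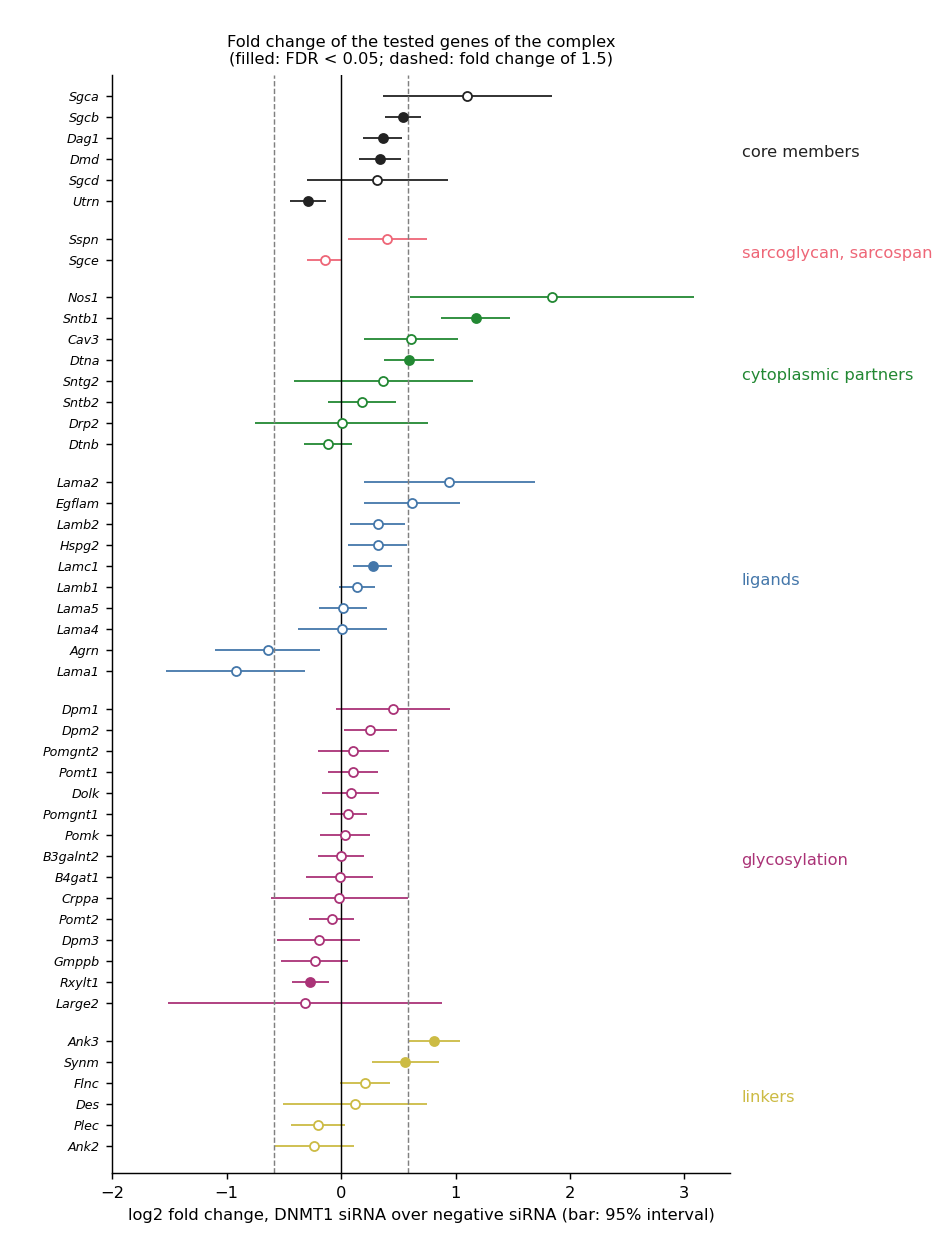
Log2 fold change, DNMT1 over negative siRNA, with 95% intervals for the tested genes of the complex, grouped by role (filled, FDR below 0.05; dashed lines, fold change of 1.5). Sntb1, Dtna and Ank3 are filled and beyond the right dashed line, and Utrn and Rxylt1 are the filled points left of 0.

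Cytoplasmic partners gather at the tail of dystrophin, where syntrophins and dystrobrevins bring in signalling proteins. Of 8 tested, 2 were DE and higher and 0 lower, with a median log2 fold change of 0.48 against -0.0049 over all tested genes. β1-syntrophin gave 140, 134 and 165 normalised counts of Sntb1 in the controls and 366, 318 and 307 with DNMT1 siRNA. Sntb1 rose by 1.18 on the log2 scale (SE 0.13, edgeR adjusted p = 0.00199), 2.26-fold, while its relative Sntb2 was at 0.18 (adjusted p = 0.392). α-dystrobrevin, which binds dystrophin directly, gave 336, 294 and 294 normalised counts of Dtna against 463, 471 and 458. Dtna rose by 0.59 (SE 0.10, edgeR adjusted p = 0.00786), just past the fold limit at 1.51-fold, and its paralog Dtnb was at -0.11 (adjusted p = 0.449). Dtna dropped under the fold limit or over the FDR limit in 5 of the 6 fits that left out 1 culture, at 0.56 to 0.58 on the log2 scale without negative siRNA culture 2 or 3 or any DNMT1 siRNA culture. Its gene spans 244.6 kb, and with the length trend taken out Dtna was at 0.49 (edgeR, adjusted p = 0.0152), under the fold limit. With DESeq2 it was at 0.56 (adjusted p = 0.000574), also under that limit. In 4 of 7 alternatives that kept all cultures and both limits it was DE. Caveolin 3 of the muscle membrane (Cav3) was at 0.61 (edgeR, adjusted p = 0.0595) and did not pass. It was DE and higher without negative siRNA culture 2 (0.78, edgeR adjusted p = 0.0100), with DESeq2 (adjusted p = 0.0240) and with the length trend taken out (edgeR, adjusted p = 0.0487). Neuronal nitric oxide synthase (Nos1) had few reads, 3, 8 and 8 counts in the controls and 8, 9 and 15 with DNMT1 siRNA. Normalised counts were 1.75, 5.51 and 6.22 against 10.7, 13.1 and 24.5, with no overlap. The log2 fold change of Nos1 was 1.84 (SE 0.54), which did not pass in edgeR's quasi-likelihood F test (adjusted p = 0.0616) or in DESeq2 (adjusted p = 0.0871). It was DE and higher with edgeR's exact test (adjusted p = 0.0112) and in edgeR with no filter (adjusted p = 0.0168). Sntg1 was too low to be tested.

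Of the 10 ligands, 0 were DE. Lamc1, the laminin γ1 chain, rose by 0.28 (SE 0.07, edgeR adjusted p = 0.0449). Lama2, the laminin chain of adult muscle, had 361, 443 and 987 normalised counts in the controls and 1137, 1087 and 1212 with DNMT1 siRNA. Control 3 stood near the knockdown cultures (edgeR, adjusted p = 0.0974 with it, and 0.00194 without it). Lama1, an embryonic chain, lay lower in all 3 knockdown cultures (156, 224 and 113 against 73.8, 84.5 and 103), at -0.92 (edgeR, adjusted p = 0.0574 and 0.0228 without control 3). Agrin (Agrn, -0.64) had an adjusted p of 0.0732 in edgeR and 0.00422 without control 2. With DESeq2 on all cultures, Lama1 and Agrn were DE and lower (adjusted p = 0.0105 and 0.00309). With edgeR's exact test 2 ligands were DE and higher and 2 lower.

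α-dystroglycan binds laminin only after a sugar chain has been built on it by a series of enzymes. Of 15 such genes, 0 were DE, with a median log2 fold change of 0.0013. Rxylt1, which adds a xylose to the chain, fell by 0.27 (SE 0.07, edgeR adjusted p = 0.0424). Its normalised counts were 1057, 1093 and 1096 in the controls and 852, 924 and 918 after knockdown, with no overlap. Pomt1 and Pomt2, which together start the chain, were at 0.11 (edgeR, adjusted p = 0.497) and -0.08 (adjusted p = 0.564).

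Linkers tie the complex to the cytoskeleton. Of 6, 1 was DE: ankyrin G, which holds dystrophin and dystroglycan at the membrane, gave 1292, 1361 and 1070 normalised counts of Ank3 against 2249, 2251 and 2056. Ank3 rose by 0.82 (SE 0.10, 1.76-fold, edgeR adjusted p = 0.00253). Its gene spans 628.7 kb, and with the length trend taken out its log2 fold change was 0.64 and it remained DE. Synemin, an intermediate filament protein, rose without reaching 1.5-fold (Synm, 0.56, SE 0.13, edgeR adjusted p = 0.0284). Its normalised counts were 351, 276 and 267 in the controls and 412, 468 and 442 with DNMT1 siRNA, so that control 1 lay nearest to the knockdown cultures. Without negative siRNA culture 1, 2 of the 6 linkers were DE and higher. Ank2 (-0.23, edgeR adjusted p = 0.344, and 0.0301 without negative siRNA culture 1) did not pass. Desmin (Des) was at 0.12 (edgeR, adjusted p = 0.809) with all cultures and at 0.58 (adjusted p = 0.00278) without negative siRNA culture 2.

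Last, the genes whose log2 levels over the 6 cultures were most like each member were sought among 12685 genes. The 6 libraries come from 2 treatments, so that any gene that differs between them scores high, and the likeness is given as a description. Dmd was closest to Mcam, Klf13 and Grhl1 (Pearson r 0.996 to 0.997), Utrn to Shroom1, Ly75 and Lpar4 (0.994 to 0.998), and Dag1 to Fam210a and Mgat5 among others (0.998 for each). Sgcb was closest to Plekha3, Tbc1d8 and Paf1 (0.997 to 0.998), Sgca to Asb2, Gja4 and Emcn (0.993 to 0.996), and Sgcd to Tnnt1, Dlc1 and Mif4gd (0.993 to 0.995). Genes with r above 0.95 numbered 55 for Sgcd and 163 to 379 for the other members.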

How the data were processed

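The members and the gene lists were chosen with earlier results of these data known. The authors mapped reads to the mouse genome (mm10) with TopHat2 after FastQC and used HTSeq to count those falling on each Ensembl gene. The deposited values are these raw counts, not normalized. Software versions are not given in the sources used here. The library kit does not mark strand. By a GENCODE annotation of GRCm38, exons of the 6 members overlap no other gene. Those of Sspn, Dtna, Nos1, Lama2, Synm, Des, Ank2 and Pomt2 do, over 0.52 to 5.86% of their length for any single other gene. Overlaps were larger for some partner and marker genes, among them B4gat1 (85.3%), Tagln (62.4%), Gmppb (33.6%) and Csf1r (15.1%). The effect of these overlaps on the counts was not tested. Counter totals such as reads given to no gene were kept out of library sizes.

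Counts were tested in R 4.3.3 with edgeR 4.0.16 (TMM, filterByExpr with minimum count 10 and minimum total 15, quasi-likelihood F test, Benjamini-Hochberg over 15470 genes). DE genes had an FDR below 0.05 and a fold change above 1.5. The SE was the absolute log2 fold change over the square root of F. Normalised counts are counts over a size factor, the TMM-adjusted library size scaled to a geometric mean of 1. RPKM used the union of exons and TMM library sizes. Ratios were computed on counts plus 0.5. Named genes were the members, the sarcoglycans, sarcospan, the DNA methyltransferases, DE genes of the lists and, for each member, the 3 genes most like it with a mean log2 CPM of at least 1 (prior count 2). Other genes named were picked after their values were seen. The length trend was a lowess curve (span 0.3) of each library's deviations on log10 gene length, used as an offset. Alternatives were DESeq2 1.42.0, edgeR's exact test and glmTreat, RLE scaling, other filters, a replicate block, no fold change limit, the length offset, the longest transcript and leaving out each culture. Some genes of the lists, and 1 planned ratio, are not reported here and were left out of the lists, the ratios and the summed RPKM. Scripts were tested on simulated data. The labels do not say whether cultures came from separate litters, so that p-values measure the spread between these samples only. Intervals of genes with few counts, such as Sgca, are wide at this depth.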

Additional observations from a re-analysis of the deposited data

How the results depend on the processing

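Every member kept its direction under all 15 alternatives. Sgca, not DE in the reported fit, was DE with DESeq2 (1.08), the exact test (1.10), no filter (1.07) and without negative siRNA replicate 2 (1.53), and Sgcd without that replicate (0.72); leaving out single replicates gave 0.86 to 1.53 for Sgca and 0.11 to 0.72 for Sgcd. With no fold change limit Dmd (0.34), Utrn (-0.29), Dag1 (0.36) and Sgcb (0.54) passed. Genes DE numbered 1004 (659 higher, 345 lower), 176 with glmTreat, 1695 with no filter, 1928 with no fold change limit, and 367 to 1245 when 1 replicate was left out, lowest without DNMT1 siRNA replicates 1 (462), 2 (367) and 3 (459). Of the partner genes 3 were DE, all higher. With DESeq2 5 were DE (3 higher, 2 lower) and with the exact test 9 (7 higher, 2 lower). With no filter the count was 6 (4 higher, 2 lower), and with no fold change limit 6 (5 higher, 1 lower). With glmTreat 1 was DE (Sntb1, higher). Leaving out 1 replicate gave 2 to 4, with 1 lower without negative siRNA replicate 2 and without negative siRNA replicate 3. Sntb1 and Ank3 were DE in all 13 alternatives other than glmTreat and no fold change limit, Dtna in 5. Without 1 replicate the log2 differences of Dmd/Utrn (0.57 to 0.71), Sgca/Sgce (1.05 to 1.64) and Sgca/Dag1 (0.55 to 1.10) kept their sign. Those of Dmd/Dag1 (-0.08 to 0.07) and Sgcb/Sgcd (-0.20 to 0.35) did not. Other scalings and filters moved the median log2 fold change of the tested genes from -0.0049 to at most -0.0349. The cause of these shifts was not tested.

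Replicate numbers did not pair the cultures (correlations of same-numbered deviations 0.0064, -0.0208 and 0.0274). With the replicate block 798 genes were DE and 5 partner genes, and the log2 fold changes were 0.34 for Dmd, -0.29 for Utrn, 0.37 for Dag1, 1.16 for Sgca, 0.54 for Sgcb and 0.39 for Sgcd, with adjusted p in edgeR of 0.0572, 0.0721, 0.0543, 0.0556, 0.0180 and 0.349.

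With the longest transcript as length, RPKM with negative and DNMT1 siRNA were 3.13 and 3.95 for Dmd, 18.8 and 15.4 for Utrn, 129 and 166 for Dag1, 11.8 and 17.2 for Sgcb, and 1.87 and 2.33 for Sgcd, and 0.970 and 2.08 for Sgca. By that length, an alternative added after seeing the data, the shares of the sarcoglycans were 40.9% and 49.8% for Sgcb, 49.4% and 37.5% for Sgce, 3.31% and 6.01% for Sgca, and 6.38% and 6.73% for Sgcd. Few reads limit Sgca and Sgcz.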
